A study of Mus musculus with 24 samples.

Results

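The 9 genes described here encode ion channels, a calcium pump and angiotensin receptors that set the membrane potential and the calcium level of the aldosterone-producing cells of the adrenal cortex. They were taken by name from the gene column of a table of 21833 protein-coding genes measured by poly(A)-enriched, strand-specific RNA-seq in mouse adrenal glands and neuroblastoma tumors. Each name matched 1 row. Of the 9, 6 (Kcnk3, Kcnk9, Kcnk2, Cacna1h, Atp2b3 and Agtr1a) reached 1 FPKM in at least 3 libraries and entered the test across genes, and 3 (Kcnj5, Cacna1d and Agtr1b) did not. FPKM is the authors' normalized level, which divides the fragments of a gene by its length and by the size of the library.

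The study had 4 groups. AG were control adrenal glands without Cre (n = 3), and AGM were tumor-free adrenal glands of Cre-positive mice heterozygous for a MYCN transgene (n = 5). TI were tumors of Cre-positive mice with an IGF2BP1 transgene (n = 8, of which 7 were +/+ and 1 was +/-), and TIM were tumors of Cre-positive mice with both transgenes, labelled IMP1/MYCN (n = 8). Both transgenes sat behind a stop cassette at the Rosa26 locus, the IGF2BP1 transgene lacked its own 3′UTR, and the Cre was driven by Dbh, which encodes the enzyme that makes noradrenaline, a marker of chromaffin and sympathetic cells. Per the labels, 7 TI samples were tumors without a stated organ and 1 was an adrenal gland tumor, whereas 5 TIM samples were tumors without a stated organ, 2 were adrenal gland tumors and 1 was a tumor at the spine. The paper places 7 of the 8 IGF2BP1 tumors in the lower abdomen, with sympathetic nerves as a possible origin, and 1 in the adrenal gland. By this account most TI tumors did not lie in the adrenal gland, the tissue they are compared with here. The names of the data columns gave only the group, so libraries carry here the group name and a letter in column order, and which column was an adrenal gland tumor is not known.

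Glomerulosa cells rest at a very negative voltage because leak potassium channels of the TASK family (Kcnk3 and Kcnk9) stay open. Angiotensin II, through Gq-coupled type 1 receptors, and plasma potassium depolarize the cell, voltage-gated calcium channels open, and the calcium that enters drives aldosterone synthesis until pumps remove it. Mutations in the human counterparts of Kcnj5, Cacna1d, Cacna1h and Atp2b3 are known from aldosterone-producing tumors of the cortex. Mice and rats, unlike humans, have a pair of genes for the type 1 receptor, Agtr1a and Agtr1b.

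Both pairs of related genes were first compared by sequence, since reads that fit 2 genes can be split between them or lost. The first 90 coding bases are shown from GRCm39, the build to which the authors aligned (UCSC mm39), on the coding strand and 5′ to 3′, with capitals at the bases that differ between the 2 genes of a pair.
Kcnk3: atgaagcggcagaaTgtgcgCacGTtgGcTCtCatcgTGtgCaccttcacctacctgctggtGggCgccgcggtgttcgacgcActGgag
Kcnk9: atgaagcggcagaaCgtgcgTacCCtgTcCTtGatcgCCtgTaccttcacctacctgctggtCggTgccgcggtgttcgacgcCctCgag
Agtr1a: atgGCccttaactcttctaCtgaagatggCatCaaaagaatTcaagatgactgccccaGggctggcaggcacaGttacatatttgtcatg
Agtr1b: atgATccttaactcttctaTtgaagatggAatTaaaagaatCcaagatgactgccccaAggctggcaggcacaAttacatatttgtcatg
These stretches lie at chr5:30745661-30745750 (plus strand) for Kcnk3, chr15:72418039-72418128 (minus) for Kcnk9, chr13:30564937-30565026 (plus) for Agtr1a and chr3:20370515-20370604 (minus) for Agtr1b. They differed at 15 bases in the Kcnk3 and Kcnk9 pair and at 8 bases in the receptor pair. Over the whole coding sequence of the canonical GENCODE transcripts, the receptor pair was 90.8% identical (1077 bases each), and 3.21% of the 50-base windows of one gene also occurred in the other. Kcnk3 and Kcnk9 were 62.3% identical over 1240 aligned positions and shared no 50-base window. The other windows of this length belonged to 1 gene of a pair.

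The members also differed in the room they take in the genome. In GENCODE M39, Kcnk3 lies on chromosome 5 and Kcnk9 on chromosome 15, each with 2 exons in its canonical transcript, and Kcnk2 lies on chromosome 1 with 7 exons. Kcnj5 is on chromosome 9 (3 exons), Cacna1h on chromosome 17 (35 exons), Cacna1d on chromosome 14 (47 exons) and Atp2b3 on the X chromosome (21 exons). Agtr1a has 3 exons on chromosome 13 and Agtr1b has 2 on chromosome 3. Protein-coding genes overlap Cacna1h (Tpsg1) and Cacna1d (Chdh and Dcp1a) on the opposite strand. On the same strand, a long noncoding RNA gene overlaps Kcnk2 and another overlaps Agtr1a, and a processed pseudogene overlaps Kcnk2 and another Cacna1d. These overlaps are of whole gene spans with introns, and overlap of exons was not examined. Whether the counting used the strand is not given in the sources used here. It is therefore not known whether reads of the neighbours were counted for these genes.

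Some facts of the whole table bear on every value below. Per the labels, all 3 AG samples were sequenced in run 1 and all 5 AGM samples in run 2, while TI came from run 1 (6), run 2 (1) and run 3 (1) and TIM from run 2 (3) and run 3 (5). The authors corrected the counts for a batch effect, and run and group cannot be told apart in AGM against AG and in TIM against AG. No TIM sample came from run 1, which held 6 of 8 TI samples, and TIM shared only run 2 with AGM. As the columns name no run, the run could not be adjusted for in TIM against TI or TIM against AGM either. Read numbers recovered from the corrected values were 12334076 to 23683176 per library outside the 126 genes above 1000 FPKM, and up to 1170004708 in AGM and 888626365 in TIM with those genes. The labelled adrenal glands were checked against cortical markers. The summed FPKM of 8 adrenocortical markers was 627 to 645 in AG and 3276 to 4249 in AGM. Among tumors it was 1.11 to 14.9 in TI and 2.07 to 11.8 in TIM. Cyp11b2, the aldosterone synthase that defines glomerulosa cells, was near 0 in AG (0.0351 to 0.0631 FPKM) and at 311 to 665 FPKM in AGM, and Nr0b1, a cortical nuclear receptor, was at most 0.0158 FPKM in AG and 105 to 170 FPKM in AGM. In the same AG libraries Star, the cholesterol transport protein, was at 178 to 184 FPKM. In tissue RNA, fewer cells of a type and less RNA per cell cannot be told apart.

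Among the members, the level per gene length followed a different order in glands and tumors. In AG, Kcnk3 stood far above the others at a mean of 121 FPKM, followed by Agtr1a (2.82), Atp2b3 (2.12), Kcnk2 (1.75), Cacna1h (1.73), Kcnk9 (1.56), Agtr1b (0.789), Cacna1d (0.163) and Kcnj5 (0.0207). The libraries of Kcnk2, Cacna1h and Kcnk9 overlapped, and the other neighbours in this order did not. In TI and TIM, Kcnk9 held the highest mean of the 9 (5.22 and 8.01 FPKM), and the range of each gene from Kcnk9 down to Atp2b3 in TI, and down to Cacna1d in TIM, overlapped that of the next. Kcnj5 and Agtr1b were the lowest in both tumor groups.

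**Figure D1:**
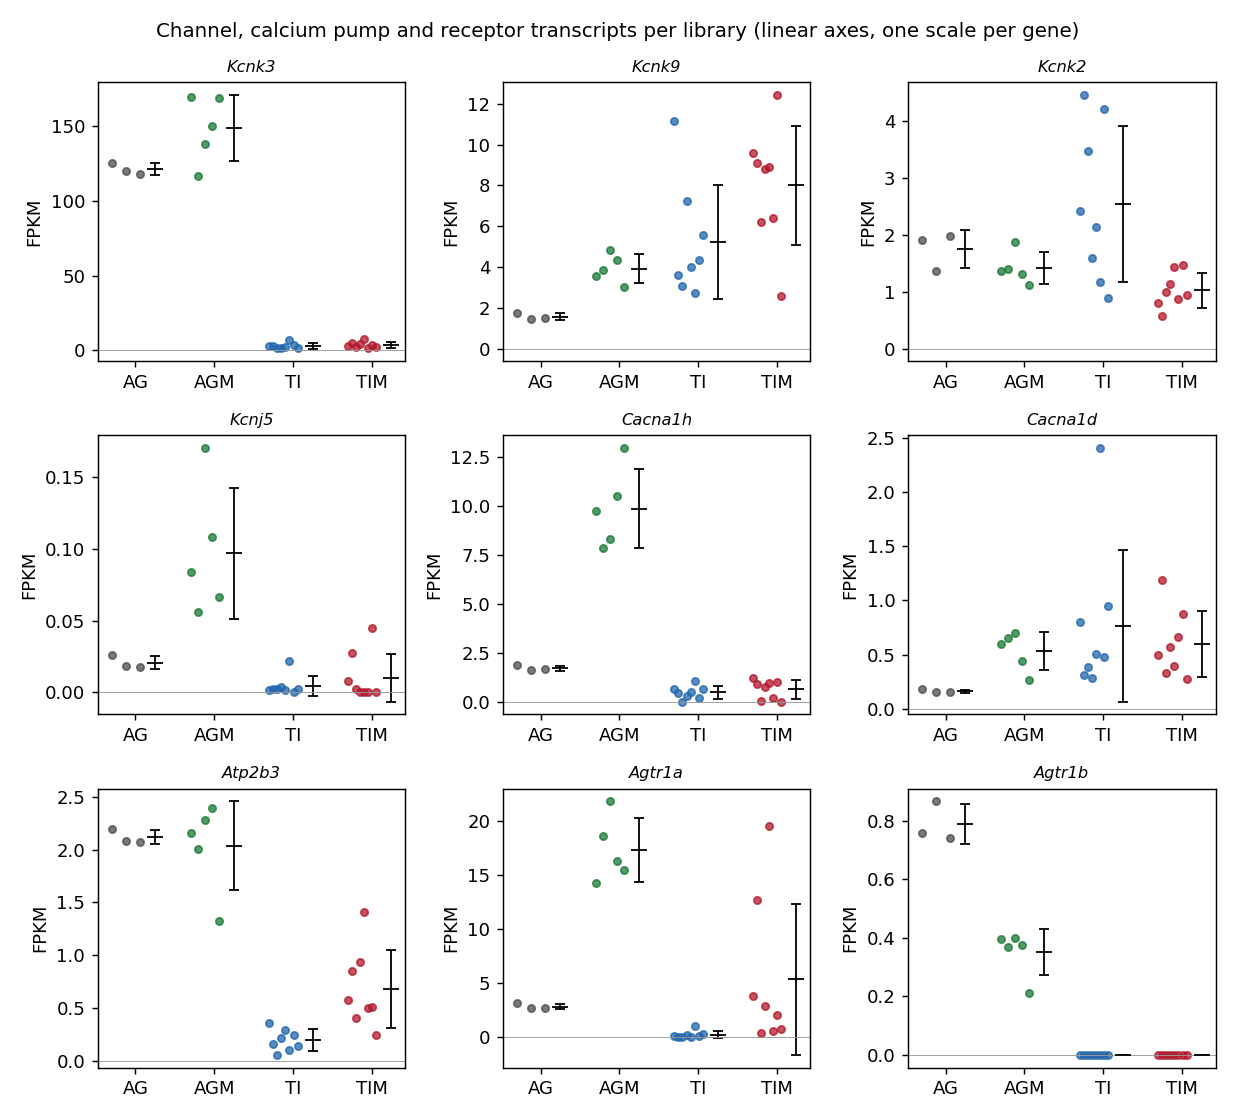
FPKM of the 9 genes in each library of AG (n = 3), AGM (n = 5), TI (n = 8) and TIM (n = 8), on linear axes with a scale for each gene; points are libraries, and black bars with caps are mean and SD. Kcnk3 was above 116 FPKM in all glands and below 8 FPKM in all tumors, and Agtr1b was at 0 in all 16 tumors.

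Kcnk3 encodes TASK-1, a leak potassium channel that is among the most abundant channels of the rodent cortex. It was at 125, 120 and 118 FPKM in AG and at 169, 117, 138, 150 and 168 FPKM in AGM. In TI it ranged from 1.23 to 6.61 FPKM (median 2.38), and in TIM from 1.27 to 7.54 FPKM (median 3.10). Every tumor lay below every gland, and both gland groups and both tumor groups overlapped. The mean in TI was 42.8-fold below AG (2.83 ± 1.73 against 121 ± 3.96 FPKM, SD), with a log2 fold change of -5.10 (SE 0.33, adjusted p = 6.94e-12, limma). In TIM the mean was 33.7-fold below AG and 41.4-fold below AGM, with log2 fold changes of -4.84 (adjusted p = 1.76e-11) and -5.12 (adjusted p = 1.41e-13). All log2 fold changes here are on the scale of log2(FPKM + 1), which understates the change of low genes. Between TIM and TI the log2 difference was 0.26 (95% confidence interval -0.24 to 0.75, adjusted p = 0.470).

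The tumors with the most Kcnk3 were TI-f (6.61 FPKM) and TIM-e (7.54 FPKM). These were also the tumors with the highest summed adrenocortical markers of their groups (14.9 and 11.8 FPKM) and the highest summed chromaffin and neuroblast markers (1800 and 4775 FPKM). The part of either cell type in the Kcnk3 level was not tested. Without both libraries, Kcnk3 was lower in TI than in AG by a log2 fold change of -5.25 (adjusted p = 1.57e-13) and lower in TIM by -4.98 (adjusted p = 4.11e-13). With all libraries kept, the median log2 fold change of the 8 adrenocortical markers was -4.04 in TI and -3.97 in TIM against AG, beside -5.10 and -4.84 for Kcnk3. The scale bounds the fall of a gene by its AG level, so the medians do not rank Kcnk3 against these markers. Mean FPKM in AG and TI was 182 and 0.301 for Star, and 234 and 0.521 for Hsd3b1. For Scarb1 it was 31.5 and 1.33, for Fdx1 30.3 and 0.994, and for Nr0b1 0.0139 and 0.00131. Kcnk3 was at 121 and 2.83 FPKM.

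AGM against AG asked how the gland with the MYCN transgene but without a tumor compares with the control gland. For Kcnk3 the log2 difference was 0.28 (95% confidence interval -0.44 to 1.01, adjusted p = 0.591), and its sign turned to -0.19 when the values were rescaled to the reads outside the most extreme genes, where the median of all genes was -0.34.

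Kcnk9 encodes TASK-3, the partner with which TASK-1 can form mixed channels. Its libraries were at 1.76, 1.43 and 1.48 FPKM in AG and at 3.54, 3.86, 4.83, 4.35 and 3.04 FPKM in AGM. In TI they ranged from 2.72 to 11.2 FPKM (median 4.18), and in TIM from 2.60 to 12.4 FPKM (median 8.86). All tumors and all AGM glands lay above all AG glands, opposite to the order of Kcnk3 in the tumors. When rescaled to the reads outside the most extreme genes, AGM-e (10.8 FPKM) fell inside the AG range (8.70 to 10.9 FPKM). The mean rose 3.35-fold in TI (log2 fold change 1.18, SE 0.32, adjusted p = 0.00345) and 5.14-fold in TIM (log2 fold change 1.73, SE 0.32, adjusted p = 8.51e-05) over AG. TIM also exceeded AGM (log2 fold change 0.80, SE 0.27, adjusted p = 0.0125), with 7 of 8 TIM libraries above all AGM libraries and 1, TIM-h, below them. The difference between TIM and TI was 0.56 (95% confidence interval 0.07 to 1.04) with an adjusted p of 0.0896, which missed the threshold of 0.05. It passed when either TI-a (adjusted p = 0.0236) or TIM-h (adjusted p = 0.0108) was left out.

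In AGM the mean of Kcnk9 was 2.52-fold above AG (log2 fold change 0.94, SE 0.34, adjusted p = 0.0441). Under 8 other settings the adjusted p ranged from 0.000415 to 0.112 and passed in 4 of them, and leaving out any 1 AG or AGM library gave 0.0512 to 0.125, so this call was lost without any of them, and also without TI-g (0.0503) or TI-h (0.0503).

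Set against each other in 1 library, the 2 TASK channels changed places. Of the summed FPKM of Kcnk3 and Kcnk9, Kcnk9 made up 1.18% to 1.39% in AG and 1.78% to 3.38% in AGM. It made up 29.2% to 81.8% in TI (median 68.5%) and 50.9% to 83.5% in TIM (median 70.7%). Kcnk9 was above Kcnk3 in none of the 8 glands, in 7 of 8 TI tumors and in 8 of 8 TIM tumors. The exception was TI-f, with the most Kcnk3 and the least Kcnk9 of the TI tumors.

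**Figure D2:**
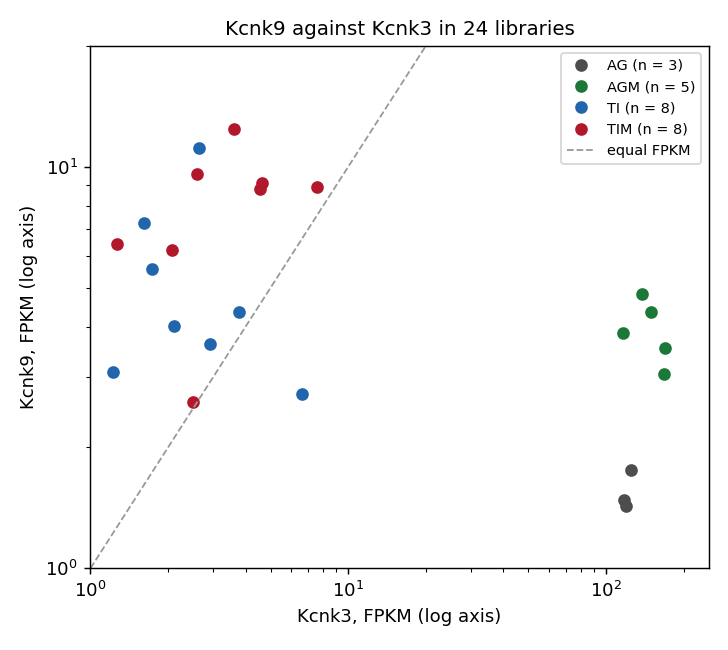
Kcnk9 against Kcnk3 in 24 libraries, in FPKM on 2 log axes; each point is a library, colored by group, and the dashed line marks equal values. The 8 glands lie at 117 to 169 FPKM of Kcnk3, far to the right of the line, and 15 of 16 tumors lie above it.

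Kcnk2 encodes TREK-1, a leak channel opened by stretch and lipids that is also found in fasciculata cells of some species. It was at 1.91, 1.36 and 1.98 FPKM in AG and at 1.36, 1.40, 1.87, 1.32 and 1.12 FPKM in AGM. In TI it ranged from 0.889 to 4.45 FPKM (median 2.27), and in TIM from 0.574 to 1.47 FPKM (median 0.968). The groups overlapped, although 3 of 8 TIM tumors lay below all TI tumors. TIM was lower than TI, with a mean of 1.03 ± 0.307 against 2.54 ± 1.36 FPKM (SD, log2 fold change -0.72, SE 0.18, adjusted p = 0.00683). No call was made against AG in TI (0.28, 95% confidence interval -0.23 to 0.78, adjusted p = 0.367) or in TIM (-0.45, -0.95 to 0.06, adjusted p = 0.131). The latter passed in 3 of 7 other settings, with an adjusted p of 0.0275 to 0.167.

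Kcnj5 encodes a subunit of G protein-gated inward rectifier potassium channels. Per library, 9 to 13 reads were recovered for it in AG and 24 to 64 in AGM, against 0 to 11 in TI and 0 to 24 in TIM. These correspond to at most 0.0259 FPKM in AG, 0.170 in AGM, 0.0223 in TI and 0.0448 in TIM. All AGM libraries lay above all libraries of the other groups, at a level where 3 reads are worth, on average over a group, 0.00603 to 0.00758 FPKM. When rescaled to the reads outside the most extreme genes, AGM-e (0.234 FPKM) lay below TIM-g (0.246 FPKM). TIM was lower than AGM (difference of means -0.0867 FPKM, exact two-sided permutation test, p = 0.00155, adjusted over 5 comparisons 0.00777). AGM against AG gave p = 0.0357 by the exact permutation test, the smallest that 5 against 3 libraries allow, and 0.0606 after adjustment. For TI against AG the adjusted value of the exact test was also 0.0606, and 1 library, TI-f, held 11 of the reads. Without it the mean of TI fell from 0.00452 to 0.00198 FPKM and the adjusted exact p was 0.0417. In TIM, leaving out TIM-g lowered the mean from 0.0103 to 0.00539 FPKM. No library of any group reached 1 FPKM of this gene.

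Cacna1h encodes the T-type calcium channel Cav3.2, which opens at small depolarizations. It was at 1.88, 1.63 and 1.68 FPKM in AG and at 9.73, 7.83, 8.33, 10.5 and 12.9 FPKM in AGM. In TI it ranged from 0.0297 to 1.10 FPKM (median 0.503), and in TIM from 0.0345 to 1.26 FPKM (median 0.871). The groups stood in the order AGM, AG and tumors without overlap, while TI and TIM overlapped. AGM exceeded AG 5.70-fold in the mean (log2 fold change 1.97, SE 0.25, adjusted p = 1.64e-06). Scaled instead to the reads outside the most extreme genes, Cacna1h was at 9.92 to 11.7 FPKM in AG and 37.4 to 48.8 FPKM in AGM. The size of this fold therefore depends on the scaling. Both tumor groups were below AG (TI -0.88, adjusted p = 0.00242, and TIM -0.76, adjusted p = 0.00745), and TIM was below AGM 14.6-fold in the mean (log2 fold change -2.74, SE 0.19, adjusted p = 2.18e-11). TIM and TI differed by 0.12 (95% confidence interval -0.23 to 0.47, adjusted p = 0.661). The change from gland to tumor was larger with the MYCN transgene in both tissues (TIM against AGM) than without it (TI against AG), by -1.86 on the log2 scale (SE 0.30, adjusted p = 9.92e-05). This value equals the difference of TIM from TI (0.12) less that of AGM from AG (1.97), so it mainly restates the difference between the gland groups. Of all genes tested, 10.0% passed this test of the difference, and Cacna1h was the only one of the 6 tested members to do so. Of 8 zona glomerulosa markers 7 were tested in AGM against AG, with 5 higher and 2 lower, where 28.6% of all tested genes were called. Their summed FPKM was 30.5 to 33.7 in AG and 376 to 715 in AGM, of which Cyp11b2 made up a mean of 0.0482 and 559 FPKM. Wnt4 was also higher in AGM (mean 43.1 against 13.0 FPKM), while Dab2 (8.44 against 13.0 FPKM) and Nr4a2 (0.354 against 1.86 FPKM) were lower. The part of glomerulosa cells in the Cacna1h level was not tested.

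Cacna1d encodes the L-type calcium channel Cav1.3. It was at 0.180, 0.153 and 0.155 FPKM in AG and at 0.599, 0.656, 0.701, 0.444 and 0.267 FPKM in AGM. In TI it ranged from 0.290 to 2.40 FPKM (median 0.494), and in TIM from 0.273 to 1.18 FPKM (median 0.533). All libraries of the other groups lay above all AG libraries, by values that correspond to 340 or more recovered reads against 245 to 294. When rescaled to the reads outside the most extreme genes, AGM-e (0.946 FPKM) fell inside the AG range (0.924 to 1.12 FPKM). The exact two-sided permutation test gave p = 0.0121 for TI and for TIM against AG, the smallest possible with 8 against 3 libraries, and 0.0303 after adjustment. Both calls were lost without any 1 AG library (adjusted exact p = 0.111) and in limma without the filter (adjusted p = 0.0551 in TI and 0.115 in TIM). AGM against AG gave 0.0357 by the same exact test (adjusted 0.0595). The levels of the 2 calcium channels were closer in tumors than in glands. Cacna1h made up 91.3% to 91.6% of their summed FPKM in AG and 92.2% to 98.0% in AGM. In tumors it made up 7.12% to 60.1% (TI) and 11.2% to 71.7% (TIM). The highest Cacna1d value of all libraries, 2.40 FPKM, was again in TI-f, and the mean of TI was 0.768 FPKM with it and 0.534 FPKM without it. The difference from AG was 0.605 FPKM with TI-f and 0.371 FPKM without it (adjusted exact p = 0.0417).

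Atp2b3 encodes PMCA3, a plasma membrane pump that exports calcium. It was at 2.19, 2.08 and 2.07 FPKM in AG and at 2.16, 2.01, 2.28, 2.40 and 1.33 FPKM in AGM. In TI it ranged from 0.0559 to 0.363 FPKM (median 0.189), and in TIM from 0.247 to 1.41 FPKM (median 0.542). All tumors lay below all AG glands, and 7 of 8 TIM tumors lay above all TI tumors. The mean was 10.8-fold lower in TI than in AG (log2 fold change -1.38, SE 0.15, adjusted p = 3.70e-08) and 3.12-fold lower in TIM (-0.92, SE 0.15, adjusted p = 1.37e-05). TIM was lower than AGM (-0.87, SE 0.12, adjusted p = 2.06e-06) and higher than TI (0.46, SE 0.11, adjusted p = 0.00425). Atp2b3 reached 1 FPKM in all 8 glands and in 1 tumor, so it entered the test through the glands. Its calls between tumors and glands are therefore a description. AGM and AG differed by -0.050 (95% confidence interval -0.37 to 0.28, adjusted p = 0.856), a difference that turned to 0.043 without AGM-e.

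Agtr1a encodes the main type 1 receptor for angiotensin II. It was at 3.12, 2.69 and 2.65 FPKM in AG and at 14.2, 18.6, 21.8, 16.3 and 15.5 FPKM in AGM. In TI it ranged from 0.0179 to 1.05 FPKM (median 0.0968), and in TIM from 0.371 to 19.5 FPKM (median 2.47). All AGM glands were above and all TI tumors below the AG glands, whereas TIM lay on both sides of AG, with 1 library inside the range of AGM and 7 below it. AGM exceeded AG 6.14-fold in the mean (log2 fold change 2.25, SE 0.61, adjusted p = 0.00821), and TI was 12.1-fold below AG (-1.67, SE 0.56, adjusted p = 0.0163). The latter was lost without AG-a (adjusted p = 0.0572). Scaled instead to the reads outside the most extreme genes, Agtr1a was at 15.8 to 19.3 FPKM in AG and 54.8 to 105 FPKM in AGM. The size of the 6.14-fold difference therefore depends on the scaling. TIM was higher than TI (log2 fold change 1.72, SE 0.42, adjusted p = 0.00562) and lower than AGM (-2.19, SE 0.47, adjusted p = 0.000382).

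The spread of Agtr1a among TIM tumors was wide. TIM-e (19.5 FPKM) and TIM-b (12.7 FPKM) reached gland levels, TIM-a (3.84) and TIM-d (2.86) lay near AG, and TIM-g (2.09), TIM-h (0.741), TIM-f (0.586) and TIM-c (0.371) lay below it. Against AG the log2 difference was 0.06 (95% confidence interval -1.11 to 1.23, adjusted p = 0.953), and it was -0.28 without TIM-e and -0.20 without TIM-b. The mean of TIM was 5.34 FPKM with TIM-e and 3.31 FPKM without it, and the mean of TI was 0.234 FPKM with TI-f and 0.117 FPKM without it. With both left out, TIM still exceeded TI by 1.49 on the log2 scale (adjusted p = 0.00398). The chromaffin and neuroblast markers, summed over 10 genes, were also highest in TIM-e (4775 FPKM), TIM-b (3584) and TIM-d (2093) and lowest in TIM-f (327) and TIM-c (350). The sum of the 8 adrenocortical markers was 11.8 FPKM in TIM-e, 4.31 in TIM-a and 3.95 in TIM-b, and 2.07 to 2.75 in the other TIM tumors. By gene, the means in TIM ran from 0.0146 FPKM (Nr5a1) and 0.0827 (Cyp11a1) to 1.09 (Fdx1) and 1.24 (Scarb1). The part of these cell types in the receptor level was not tested.

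Agtr1b encodes the second type 1 receptor. It was at 0.760, 0.867 and 0.742 FPKM in AG (169 to 196 recovered reads) and at 0.396, 0.370, 0.400, 0.377 and 0.211 FPKM in AGM (38 to 73 reads). It was at 0 in all 8 TI and all 8 TIM tumors. AG lay above AGM, opposite to Agtr1a, and both lay above the tumors without overlap. A count of 3 reads in each library, the upper limit that 0 reads allow, is worth on average 0.0137 FPKM in TI and 0.0140 FPKM in TIM, so the mean was at least 57.5-fold lower in TI and at least 56.3-fold lower in TIM than in AG, and at least 25.0-fold lower in TIM than in AGM. These limits cover counting error only and rest on counts after the batch correction. The exact two-sided permutation test gave p = 0.0121 for each tumor group against AG (adjusted 0.0202) and p = 0.00155 for TIM against AGM (adjusted 0.00777), the smallest values these group sizes allow. AGM was lower than AG (difference of means -0.439 FPKM, exact test p = 0.0357, adjusted 0.0446), a call that was lost without any 1 of the 8 libraries, where the exact test could not reach the threshold. The share of Agtr1b in the summed FPKM of both receptors was 19.6% to 24.4% in AG and 1.35% to 2.71% in AGM. In TIM-e and TIM-b, with 4949 and 3301 reads of Agtr1a, no read was assigned to Agtr1b.

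**Figure D3:**
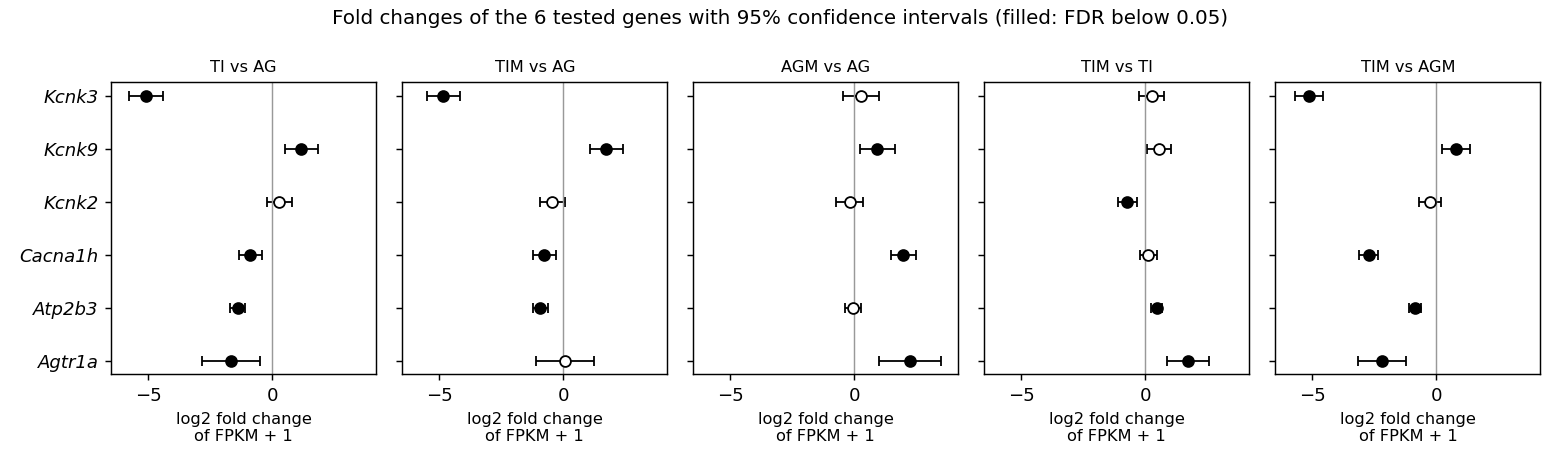
Log2 fold changes of FPKM + 1 with 95% confidence intervals for the 6 tested genes in 5 comparisons (limma); filled points have an adjusted p below 0.05. Kcnk3 was near -5 in all 3 comparisons of tumors with glands, Kcnk9 was above 0 in the same comparisons, and Cacna1h and Agtr1a were above 0 in AGM vs AG.

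Counted over the 6 tested members, 5 were called in TI against AG (1 higher and 4 lower), where 52.4% of all tested genes were called. In TIM against AG 4 were called (1 higher and 3 lower, all genes 51.0%), and in TIM against AGM 5 were called (1 higher and 4 lower, all genes 65.3%). In AGM against AG 3 were called, all higher (all genes 28.6%), and in TIM against TI 3 were called, of which Agtr1a and Atp2b3 were higher and Kcnk2 lower (all genes 22.9%). The median log2 fold change of the 6 was -1.13, -0.61, -1.53, 0.61 and 0.36 in the same order, and that of all tested genes was between -0.00 and 0.03. These counts are a description, since Atp2b3, at 1 FPKM or more in all 8 glands and in 1 tumor, entered the test through the glands, and since 3 of the comparisons share the AG libraries. Several pathway genes named below entered the test in a like way, so their calls are a description as well. Agtrap, Kcnk5 and Plcb3 reached 1 FPKM only in glands, and Atp2b1, Atp2b2, Orai2 and Plcb4 only in tumors. Agt reached it in 5 AGM libraries and 1 TIM library, and Atp2a3 in 5 AGM and 2 TIM libraries. Agtr2, Camk2b and Atp2b4 reached it in no AG library.

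The genes whose log2(FPKM + 1) followed each member most closely over the 24 libraries were found by Pearson correlation, where the libraries of a group are not independent points. For Kcnk3 they were Fdx1 (r = 0.992), a marker of steroid-making cells, Tmem205 (0.990) and Pced1b (0.989). For Cacna1h they were Ppard (0.972), Parp10 (0.971) and Mrap (0.970), the partner protein of the corticotropin receptor. The nearest genes to Atp2b3 were Tmem135 (0.956), Cox18 (0.954) and Gamt (0.944), and those to Agtr1a were Sil1 (0.963), Alg1 (0.962) and Lgi3 (0.961). Genes near Kcnk9 included Rtl5 (0.920) and Cited2 (0.907), and Kcnk2 was nearest to Usp21 (0.875), Banp (0.872) and Tsen34 (0.857). Among the members, Kcnk3 was closest to Atp2b3 (0.913) and Cacna1h (0.868), and its correlation with Kcnk9 was -0.544.

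The renin-angiotensin genes around the type 1 receptors moved in both directions. Of 11 listed genes 6 were tested, with 2 higher and 2 lower in TI against AG, 2 and 2 in TIM against AG, 3 and 1 in AGM against AG, none in TIM against TI, and 2 and 3 in TIM against AGM. Of all tested genes, 52.4%, 51.0%, 28.6%, 22.9% and 65.3% were called in the same order. Agtr2, the type 2 angiotensin receptor, was at 0.725 to 0.841 FPKM in AG and 2.87 to 7.42 in AGM. Tumors held 2.12 to 23.9 FPKM in TI and 3.20 to 47.6 in TIM. All libraries outside AG lay above AG, and its log2 fold change was 2.55 in TI (adjusted p = 0.00143), 3.18 in TIM (adjusted p = 0.000162) and 1.95 in AGM (adjusted p = 0.0321). The last call was lost with limma-voom (adjusted p = 0.0805). Agtrap, a protein that promotes uptake of the type 1 receptor, fell from 4.30 to 5.09 FPKM in AG to at most 0.643 in TI and 0.735 in TIM (log2 fold changes -2.23, adjusted p = 1.07e-12, and -2.07, adjusted p = 4.14e-12). Agt, the precursor of angiotensin, was higher in AGM than in AG (log2 fold change 2.92, adjusted p = 0.00432), although its AGM libraries ran from 1.28 to 92.3 FPKM, and lower in TIM than in AGM (-3.45, adjusted p = 1.57e-05). Atp6ap2, the prorenin receptor, was higher in TIM than in AG (1.40, adjusted p = 0.000231).

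Other channels and pumps of adrenal cells were counted from 16 genes, of which 9 were tested. In TI against AG 1 was higher and 4 lower, in TIM against AG 3 and 3, in AGM against AG 1 and 1, in TIM against TI 2 and 0, and in TIM against AGM 3 and 3. The shares of all tested genes called were 52.4%, 51.0%, 28.6%, 22.9% and 65.3% in this order. Atp1b1, the beta subunit of the sodium pump, rose in TI (2.44, adjusted p = 0.000162), TIM (3.18, adjusted p = 6.73e-06) and AGM (1.96, adjusted p = 0.0066) over AG. Clcn2, a chloride channel whose human counterpart is mutated in familial aldosteronism, fell in TI (-1.68, adjusted p = 8.90e-11) and TIM (-1.89, adjusted p = 1.11e-11). Kcnk5, another leak potassium channel, was lower in TI than in AG (-1.01, adjusted p = 2.48e-05). Kcnk1, also of the leak channel family, was at 0.0524 to 0.358 FPKM in TI and 0.738 to 2.89 FPKM in TIM without overlap. It was higher in TIM than in TI by 1.07 on the log2 scale (limma, adjusted p = 8.65e-07). Only TIM libraries reached 1 FPKM of Kcnk1 (7 of 8), so it entered the test through the group where it was higher, and this call is a description.

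Of 11 genes of calcium clearance and store entry, 10 were tested. Against AG, 3 were higher and 2 lower in TI, 4 and 3 in TIM, and 2 and 0 in AGM. In TIM against TI 1 was higher and none lower, and in TIM against AGM 4 and 4. The shares of all tested genes called were 52.4%, 51.0%, 28.6%, 22.9% and 65.3% in this order. Among the other plasma membrane calcium pumps, Atp2b1 was higher in TI than in AG (1.23, adjusted p = 0.00121), and Atp2b2 (1.51, adjusted p = 6.58e-06) and Atp2b4 (1.23, adjusted p = 0.0239) were higher in TIM than in AG, where Atp2b3 was lower. The Atp2b4 call was lost with limma-voom (adjusted p = 0.0570). Atp2b2 was at 0.0708 to 0.0968 FPKM in AG and 0.652 to 4.03 FPKM in TIM. Of the store-operated channels, Orai3 was lower in TI than in AG (-1.38, adjusted p = 1.28e-05) and Orai2 higher in TIM than in AG (1.05, adjusted p = 0.000221). Atp2a3, a pump of the endoplasmic reticulum, was lower in TIM than in AGM (-1.11, adjusted p = 6.41e-06).

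Of 29 genes of Gq, calcium and calmodulin signalling downstream of the receptor, 24 were tested. In TI against AG 7 were higher and 8 lower, in TIM against AG 7 and 8, in AGM against AG 2 and 9, in TIM against TI 5 and 4, and in TIM against AGM 10 and 7. Over all tested genes, 52.4%, 51.0%, 28.6%, 22.9% and 65.3% were called in this order. The 2 regulators of G protein signalling moved apart. Rgs2 was at 5.99 to 17.1 FPKM in AG and 0.489 to 1.68 in TI (log2 fold change -2.58, adjusted p = 2.39e-09), and Rgs4 was at 1.34 to 1.67 FPKM in AG and 8.64 to 18.5 in TI (2.39, adjusted p = 2.87e-06). In TIM against AG the same genes had log2 fold changes of -2.62 (adjusted p = 1.94e-09) and 2.59 (adjusted p = 9.59e-07). Phospholipase C isoforms also differed, with Plcb4 higher in TI than in AG (1.66, adjusted p = 3.12e-06) and Plcb3 lower in TIM than in AG (-1.62, adjusted p = 3.87e-09). Camk2b, a calmodulin-dependent kinase subunit abundant in neurons, was higher in TI (1.52, adjusted p = 0.00325), TIM (2.48, adjusted p = 2.25e-05) and AGM (1.24, adjusted p = 0.0376) than in AG. Between TIM and AGM, Calm2 was higher in TIM (1.27, adjusted p = 1.98e-06) and Nr4a1, a calcium-induced transcription factor, lower (-2.12, adjusted p = 0.00777).

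**Figure D4:**
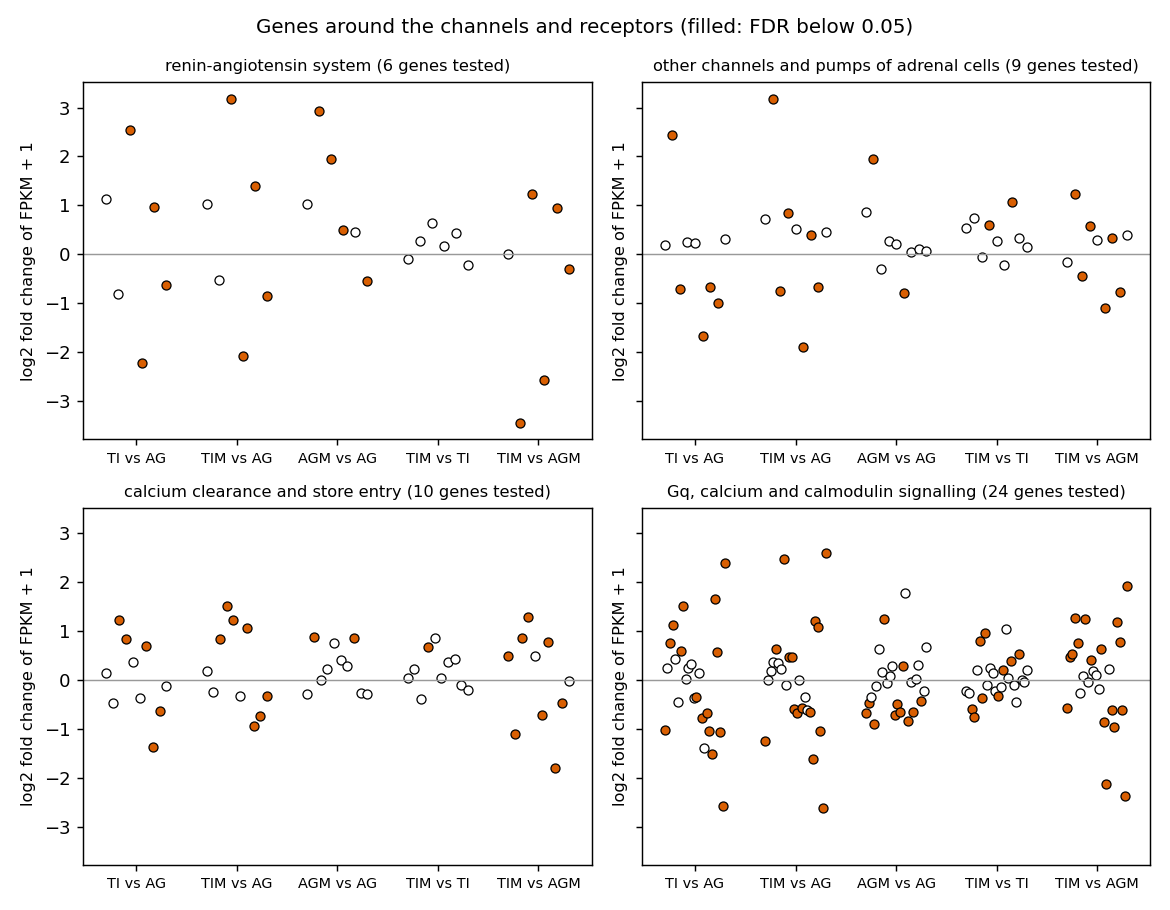
Log2 fold changes of FPKM + 1 for the tested genes of 4 lists in 5 comparisons; each point is a gene, filled where the adjusted p was below 0.05. Each list held genes on both sides of 0. In the renin-angiotensin list no gene was called in TIM vs TI, where 22.9% of all tested genes were called.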

How the data were processed

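Poly(A)-enriched, strand-specific libraries of 24 mouse samples were analysed. The authors trimmed reads with cutadapt 2.8, aligned them with HISAT2 2.1.0 to mm39, counted them with featureCounts 2.0.0 (SAMtools 1.10 is also named in the submitters' notes), corrected a batch effect with ComBat-seq and used edgeR 3.40 with TMM factors. Deposited were FPKM values per gene, not counts; for Kcnk3 they were 3.54 to 6.47 times below FPKM recomputed from recovered reads, so levels are relative. The annotation release is not given in the sources used here. Another 9 columns held the authors' fold changes, p-values and FDR against AG and were not used. Columns were mapped to groups by name.

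Tests used limma 3.58.1 in R 4.3.3 (trend) on log2(FPKM + 1) of the 10171 genes that reached 1 FPKM in 3 or more libraries, the 4 groups sharing 1 spread, with Benjamini-Hochberg adjustment over these genes and a threshold of 0.05. On simulated data, 93.0% (TI against AG) to 96.5% (TIM against TI) of 200 genes changed by 2 on the log2 scale were recovered, and 4.62% (TI against AG) to 6.83% (TIM against AGM) of calls were false, above 5% in 3 of 5 comparisons. The simulation drew independent normal values with 1 spread per gene in all groups. It held no run effect, and only 200 of 10171 genes changed. These rates therefore do not carry over to unequal spreads, to runs or to the many changes seen here. For members below the filter, mean FPKM was tested by exact permutation (two-sided, scipy 1.17.1), adjusted over 5 comparisons. Multiplied by length, 100.0% of values were whole multiples of a step (tolerance 0.01 reads), which gave the recovered reads; these follow the correction and are not raw depth. Nothing in the labels pairs libraries, and no 2 columns were identical; where samples are not stated to be separate animals, p-values measure only the spread between them. Members and lists were chosen with earlier results of these data known. Named were all members, up to 4 called pathway genes per list and comparison that moved by 1 or more on the log2 scale, largest first, and the 3 nearest genes per member, of which 1 is not reported here. Summed endothelial, smooth muscle, fibroblast and macrophage marker levels are given in the closing section.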

Additional observations from a re-analysis of the deposited data

Results flagged for a closer look

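In the TI tumors, 1 library, TI-f, stood apart from the other 7 by Dixon's criterion for 4 of the genes. These were Kcnk3 (6.61 FPKM), Cacna1d (2.40 FPKM), Agtr1a (1.05 FPKM) and Kcnj5 (0.0223 FPKM), each the highest of its group. TI-f also had the highest summed adrenocortical markers (14.9 FPKM, next highest 4.40) and chromaffin and neuroblast markers (1800 FPKM, next highest 647) of the TI tumors; their part in these values was not tested. In AGM, the library AGM-e was lowest for Agtr1b (0.211 FPKM) by the same criterion. Of 25 gene and group combinations examined 5 were marked. The nominal rate of about 1 in 20 holds for independent, normally distributed values. Here the values were FPKM without a log, and 4 of the marks were in TI-f, so the number of marks cannot be set against that rate.

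The gland-to-tumor change of Cacna1h differed between the MYCN-carrying and the MYCN-free pair of groups by -1.86 on the log2 scale (limma, adjusted p = 9.92e-05). AG shared no sequencing run with AGM or TIM, so this difference cannot be told apart from one between runs. The value of -1.86 equals the difference of TIM from TI (0.12) less that of AGM from AG (1.97), and so lies mainly in the glands.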

How the results depend on the processing

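Sensitivity was examined with a pseudocount of 0.1, no filter, a filter of at least 1 FPKM in every library, FPKM recomputed on the reads outside the extreme genes, median-centred libraries, a spread set by the 2 groups alone, limma-voom on recovered reads, leaving out each library in turn and, chosen after seeing the data, leaving out TI-f and TIM-e. No paired analysis was possible because the data columns carry no replicate number of the labels. Recomputed FPKM moved the median log2 fold change of all genes to -0.34 (AGM against AG), -0.14 (TIM against AG), -0.12 (TIM against TI) and 0.24 (TIM against AGM), and limma-voom moved that of AGM against AG to -0.50. Of 120 pathway gene values under 3 scalings, 120 kept their direction and 118 their call.

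With at least 1 FPKM in every library, 2 members remained testable, of which 2 were called in TI against AG, 2 in TIM against AG, 2 in TIM against AGM, 0 in AGM against AG and 0 in TIM against TI, and the counts over all genes fell to 1627, 1534, 1944, 569 and 737. Recomputed FPKM called 7 of 8 tested members in TIM against AG, where the total over all genes under this setting is not reported here. This member count is therefore a description. The same setting called 5863 genes in AGM against AG and 3595 in TIM against TI. A spread set by 2 groups alone called 6312 genes in AGM against AG and 1309 in TIM against TI. Leaving out 1 library gave 4 to 5 members in TI against AG, 4 in TIM against AG, 2 to 3 in AGM against AG, 3 to 4 in TIM against TI and 5 in TIM against AGM. The genes called then ranged from 4322 to 5575, 4148 to 5420, 1727 to 3319, 1815 to 2778 and 5968 to 6894. In AGM against AG, 2908 genes were called with all libraries, 1727 without AG-a, 1771 without AG-b and 1826 without AG-c.

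Agtr1a in TIM against AG turned from 0.06 to -0.20 with a pseudocount of 0.1, -0.30 with recomputed FPKM, -0.35 with limma-voom, -0.28 without TI-f and TIM-e, and ranged from -0.28 to 0.28 with 1 library left out. Kcnk3 in AGM against AG turned to -0.19 with recomputed FPKM and -0.19 with limma-voom. With 1 library left out, Atp2b3 in AGM against AG ranged from -0.093 to 0.043. The Cacna1d differences in mean FPKM ranged from -0.252 to 0.0650 in TIM against TI and from -0.0182 to 0.112 in TIM against AGM. Without any 1 AG library, the exact tests of Cacna1d (adjusted p = 0.111) and Agtr1b (0.0741) in the tumors against AG could not reach 0.05. In limma without the filter, Cacna1d missed it as well in TI (adjusted p = 0.0551) and TIM (0.115) against AG, and Kcnj5 passed in AGM against AG (0.00146), as did Agtr1b in TI and TIM against AG (both 5.05e-16) and in AGM against AG (1.26e-09). Statements on single reads (Kcnj5, Agtr1b) are limited by depth.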

Other observations

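Markers of other cell types of the gland and tumor stroma were summed per library. Endothelial markers (5 genes) were at 15.4 to 16.5 FPKM in AG and 10.9 to 12.6 in AGM, against 2.01 to 19.8 (TI) and 1.15 to 6.73 (TIM) in tumors. Smooth muscle and pericyte markers (6 genes) were at 7.59 to 8.41 FPKM in AG and 19.4 to 23.0 in AGM, against 9.07 to 101 (TI) and 10.4 to 42.5 (TIM) in tumors. Fibroblast markers (5 genes) were at 14.7 to 17.9, 6.39 to 12.1, 5.78 to 57.0 and 3.54 to 27.9 FPKM in the same order, and macrophage markers (4 genes) at 14.1 to 27.2, 23.9 to 39.7, 9.21 to 31.9 and 15.4 to 31.9 FPKM. The fibroblast sum joins genes that moved apart, with 1 called higher and 3 lower by limma in each tumor group against AG (all genes 52.4% in TI and 51.0% in TIM). Adipocyte markers (4 genes) were at 45.8 to 199 FPKM in AG and 177 to 980 in AGM, at most 0.195 in TI and at most 11.8 in TIM, in TIM-e. The markers did not move together between AG and AGM. Mean FPKM was higher in AGM for Lep (278 against 0.842) and Plin1 (61.0 against 6.70). It was lower in AGM for Adipoq (45.8 against 66.3) and Cidec (38.4 against 60.6). Zona fasciculata markers (5 genes) were at 111 to 135 FPKM in AG and 1105 to 1948 in AGM, against 0.0301 to 6.94 (TI) and 0.113 to 5.13 (TIM) in tumors.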
